A study of Sus scrofa with 6 samples.

Results

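The proteasome is the large protease that degrades proteins tagged with ubiquitin. Its genes were followed in the longissimus dorsi, a back muscle, of QingYu pigs. Members were the rows of the gene table whose Ensembl symbol starts with PSMA, PSMB, PSMC, PSMD, PSME, PSMF or PSMG followed by a digit, with PSMC3IP left out. This gave 40 genes of 12671 loci, of which 9764 carry a symbol. The 20S core had 14 of them, the 19S cap 16, the activators 4, the inhibitors 1 and the assembly chaperones 4. The remaining gene, PSME3IP1, encodes a protein that binds the activator PSME3. The subunits PSMA6, PSMA8, PSMB5, PSMB6, PSMB11, PSMD2, PSMG1, PSMG2 and PSMG4 were not analysed here.

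RNA was sequenced from 3 female pigs at the growth inflection point (IP, 178 days of age) and 3 at the plateau phase (PP, 395 days of age), given as biological replicates. The pigs of both phases were of the same breed and were housed alike, and the labels name no treatment. The paper states that they ate the same diet, but also that diets were made to meet recommendations by growth phase. Growth was measured on batches of pigs with different birth dates, and the batch of the sequenced pigs is not named. As the age label reads 178 days also for PP libraries, the phase was taken from the sample titles and the ages from the growth protocol. Expression was deposited as TPM, read shares per length of transcript that add up to the same total in each library, so levels of different genes can be compared per length, while the number of reads behind each value is unknown. Among skeletal muscle markers, ACTA1, CKM, TNNT3, TNNI2 and DES were measured, and together they had 17360 to 32824 TPM. The median TPM of all loci was 4.69, 6.12 and 3.03 in IP replicates 1, 2 and 3 and 2.98, 4.52 and 3.18 in PP replicates 1, 2 and 3. IP replicates 1 and 2 and PP replicate 2 therefore had the higher median, and this is given beside the results it touches. All values by library below are in the order of replicates 1, 2 and 3. The tissue was sequenced in bulk, so fewer cells of a type and less RNA per cell cannot be told apart.

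The 20S core is a barrel of stacked rings. Its outer alpha rings gate the entry, and its inner beta rings carry the proteolytic sites. The 19S cap binds ubiquitin chains, removes them, and unfolds and feeds substrates into the core with a ring of ATPases. Other activators can take the place of the cap. In skeletal muscle the proteasome turns over contractile and soluble proteins that ligases such as TRIM63 and FBXO32 have marked, and muscle wasting in rodents is known for a joint rise of its subunits.

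Promoters of members were examined because proteasome subunits are made in fixed proportion, and elements shared by their promoters are a known route to joint expression. The window ran from 250 bases before to 50 bases after the RefSeq gene start on Sscrofa11.1, and 39 of the 40 members matched RefSeq by symbol. Both strands were searched. The ETS-type core CCGGAAG was found in 17 of 39 member promoters (43.6%) and in 11.0% of 19531 promoters of protein-coding genes. It was found in 4 of 14 promoters of the 20S core, none of them of an inducible subunit, in 9 of 16 of the 19S cap and in 1 of 4 of the activators. Among the members whose phases did not overlap, given below, PSMA5 and PSMD10 had no such core in the window. The CCAAT box (CCAAT) was found in 43.6% of member promoters and 35.4% of all promoters. The antioxidant-type element TGACNNNGC, bound by NFE2L1 and NFE2L2, was found in 10.3% and 12.3%, and the centre of the NRF1 palindrome, GCATGC, in 5.13% and 6.62%. None of these letter strings contains another. A match is a description of the letters in this window, and whether a factor binds there was not measured. In 11 members the CCGGAAG core lay wholly before the start, at 14 places from 8 to 116 bases before it. A few of these stretches are shown, chosen for the members that the comparisons below turn on, on the strand of the gene and 5′ to 3′, with 1 core or its reverse complement in capitals. The PSMB1 stretch also holds a second core near its end, in reverse complement and left in lower case, 25 bases before the start. They lie at chr2:44740066-44740101 (PSMA1, plus strand), chr1:23771-23809 (PSMB1, plus), chr12:23357645-23357683 (PSMB3, minus), chr9:103362641-103362679 (PSMC2, plus), chr12:15106420-15106458 (PSMC5, minus), chr3:87231461-87231499 (PSME4, plus) and chr17:34164724-34164759 (PSMF1, minus).
PSMA1: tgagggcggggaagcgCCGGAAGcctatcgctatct
PSMB1: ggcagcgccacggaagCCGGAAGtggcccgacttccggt
PSMB3: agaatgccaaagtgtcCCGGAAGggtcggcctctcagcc
PSMC2: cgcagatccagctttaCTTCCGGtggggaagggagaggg
PSMC5: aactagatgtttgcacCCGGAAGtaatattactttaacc
PSME4: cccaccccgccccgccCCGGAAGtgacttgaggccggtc
PSMF1: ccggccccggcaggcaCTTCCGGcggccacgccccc

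All 40 members were measured at 1 TPM or more in every library, so all passed the filter for testing. Mean levels over the 6 libraries ran from 3.11 TPM for PSMB9 to 147 TPM for PSMB4, with 21 members above 50 TPM and 12 under 20 TPM. The alpha ring genes (56.9 to 118 TPM) and the constitutive beta ring genes (45.5 to 147 TPM) were at levels like those of the ATPases of the cap (43.1 to 105 TPM). Inducible beta subunits had means of 3.11 to 5.70 TPM and gave 0.848% to 1.68% of the summed TPM of the core genes. The order of the 40 genes was much alike in all libraries, with Spearman's rho across genes of 0.899 to 0.987 for pairs of libraries within a phase and 0.886 to 0.983 for pairs between phases. These pairs share their genes and are given as a description. The plot of TPM by gene shows the inducible subunits far under the rest of the core.

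**Figure D1:**
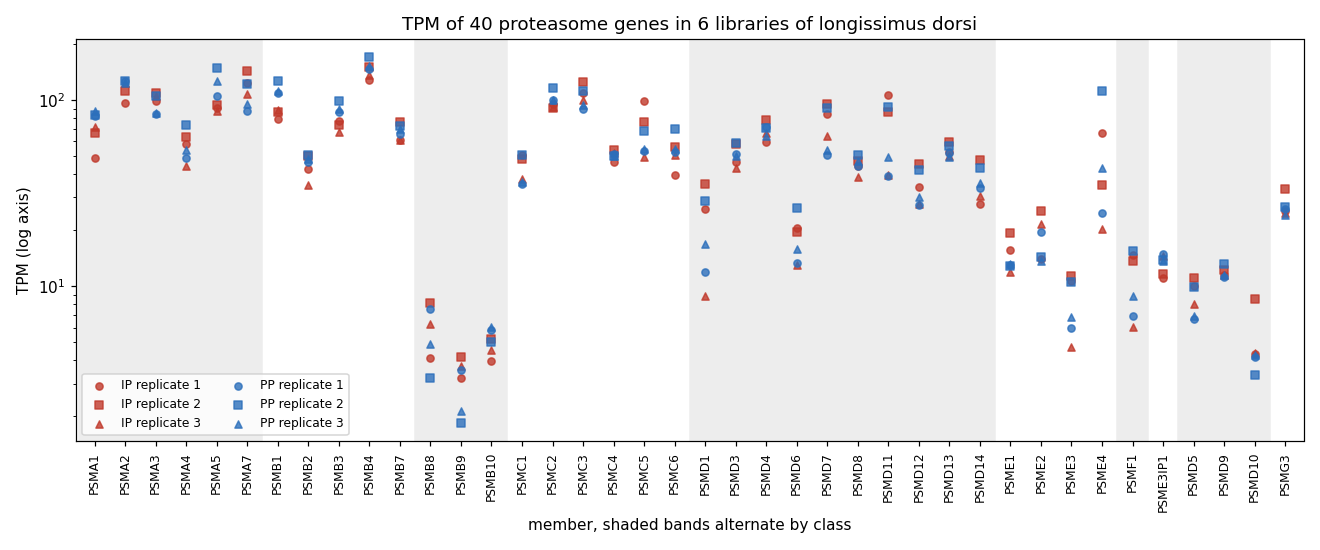
TPM on a log axis of the 40 proteasome genes in each of the 6 libraries, with IP libraries in red, PP libraries in blue and 1 symbol for each replicate number. Mean levels run from 3.11 TPM (PSMB9) to 147 TPM (PSMB4), and for most genes the red and blue points are mixed.

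Between the phases, none of the 40 members passed an adjusted p of 0.05 (limma on log2(TPM + 1), Benjamini-Hochberg adjustment over all 10896 loci tested), where 0.147% of all loci did. The smallest adjusted p among them was 0.712. At an unadjusted p under 0.05, 1 member was higher at the PP (PSMB1) and 0 were higher at the IP, against 1.06% and 5.86% of all loci. The study's thresholds of an unadjusted p under 0.05 and a 2-fold change were passed by 0 members and by 2.57% of all loci. The log2 fold change, IP minus PP on the log2(TPM + 1) scale, had a median of -0.01 over the members, and 20 members lay above 0 and 20 below. The same median over all loci was 0.25, and 32 of the 40 members lay under that value. When libraries were rescaled by their median ratio, the median of all loci was -0.01 and that of the members -0.32. The median of the members lay under that of all loci with both scalings, and close to 0 on the deposited scale. Dividing each library by a single factor shifts most loci by like amounts. The gap between the medians could therefore hardly change, and the second scaling adds no support for it. The same rescaling moved single members by like amounts, with log2 fold changes of -0.78 for PSMB1, -0.79 for PSMA5, -0.77 for PSMA1, -0.53 for PSMB10, -0.59 for PSMC6 and 0.12 for PSMD10, none of them called.

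The precision of this comparison differs between members. On the deposited scale, the 95% interval of the log2 fold change lay within -1 to 1 for 32 members. A difference of 2-fold or more in TPM + 1 is thus outside the interval for them at this level of confidence. For the other 8, PSMB8, PSMB9, PSMD1, PSMD7, PSMD10, PSMD11, PSME4 and PSMF1, it reached past -1 or 1. The widest was that of PSME4, from -1.83 to 0.94, and the narrowest half-width of a member was 0.442. A missed threshold does not show that the phases have the same level. Intervals are not given for other scalings, and median-ratio scaling moved PSMB1, PSMA5 and PSMA1 to -0.78, -0.79 and -0.77, closer to -1. For members of few TPM, such as PSMB10, the added 1 also makes a 2-fold change of TPM smaller on this scale.

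**Figure D2:**
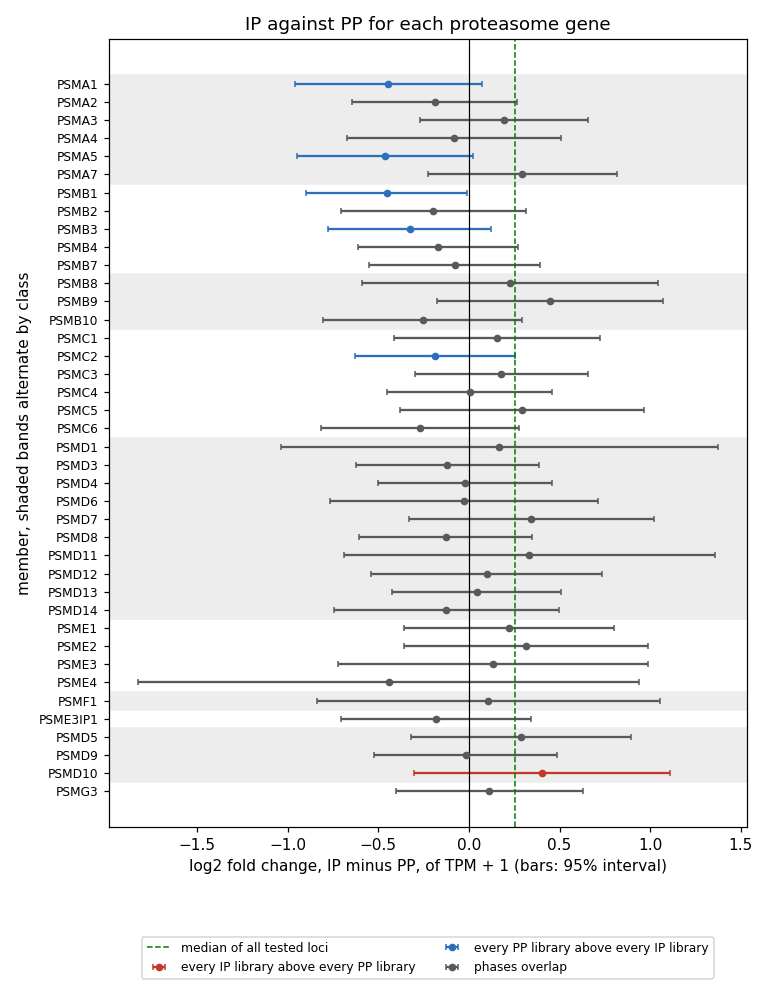
Log2 fold change of each member, IP minus PP, on the log2(TPM + 1) scale, with bars for the 95% interval of the limma fit (3 libraries a phase), and a dashed line at the median of all tested loci (0.25). Intervals of all members but PSMB1 include 0, and the constitutive beta ring genes lie on the PP side of 0.

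In 5 members every PP library was above every IP library, PSMA1, PSMA5, PSMB1, PSMB3 and PSMC2, where 2.02% of all loci did so. In 1 member, PSMD10, every IP library was above every PP library, against 10.8% of all loci. The adjusted p of these 5 ran from 0.712 to 0.807 (limma). Of the 5, 4 belong to the core and are structural parts of its rings, and PSMC2 is an ATPase of the cap. Only 3 of the 14 core genes are inducible, and the catalytic PSMB5 and PSMB6 were not analysed here. The counts depended on the scaling and on single libraries, as did the shares over all loci. Members higher at the PP with no overlap numbered 7 with median-ratio scaling (7.32% of all loci) and 12 with quantile normalization (7.53%). They numbered 14 without the most abundant locus, MSTRG.716 (4.01%), and 13 without IP replicate 2 (6.34%). MSTRG.716 alone held 25.2%, 21.8% and 31.9% of the summed TPM in IP libraries and 35.0%, 29.0% and 35.8% in PP libraries. As TPM add up to a fixed total, its share lowers the TPM of all other loci. Members higher at the IP with no overlap numbered 4 without IP replicate 1 (15.3% of all loci), 6 without IP replicate 3 (41.0%), 2 without PP replicate 1 (14.5%) and 8 without PP replicate 2 (30.3%).

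PSMB1, a structural subunit of the beta ring, is annotated at 23827 to 40033 of chromosome 1 (Sscrofa11.1). Its level was 78.9, 86.2 and 88.0 TPM at the IP and 109, 127 and 112 TPM at the PP. The phases did not overlap, and the log2 fold change was -0.45 (standard error 0.19, unadjusted p = 0.0466, adjusted p = 0.712 from limma). PSMB3, another structural beta subunit, had 77.0, 73.6 and 67.5 TPM at the IP and 86.5, 98.8 and 89.1 TPM at the PP, again with no overlap (log2 fold change -0.33, standard error 0.19). PSMB4, the subunit that joins the ring last, had the highest mean of all members. Its values were 128, 151 and 136 TPM at the IP and 146, 170 and 152 TPM at the PP, and they overlap, as IP replicate 2 lay above PP replicate 1. PSMB2, the lowest of the constitutive beta genes, had 42.5, 49.97 and 35.1 TPM at the IP and 46.5, 50.5 and 48.2 TPM at the PP. PSMB7, which encodes the trypsin-like catalytic subunit, had 60.9, 76.0 and 61.2 TPM at the IP and 65.9, 72.4 and 70.2 TPM at the PP, with the IP libraries on either side of the PP libraries (log2 fold change -0.08). All 5 constitutive beta genes analysed here, which leave out PSMB5 and PSMB6, had a log2 fold change below 0, from -0.45 to -0.08. Each stayed below 0 in all 17 alternative settings. Those that changed only the filter, the variance model or the block for the replicate number leave the fold change as it is. Median-ratio scaling, quantile normalization and the omission of MSTRG.716 moved all 5 genes further below 0. The same settings lowered the median of all loci from 0.25 to -0.01, -0.01 and 0.15, in that order. This move is therefore not particular to the 5 genes and adds no support for their direction. None of the 5 genes was called in any setting.

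In the alpha ring, 4 of 6 members lay below 0 and 2 above. PSMA5 had 90.6, 94.5 and 87.1 TPM at the IP and 105, 149 and 126 TPM at the PP, with no overlap (log2 fold change -0.46, standard error 0.21, adjusted p = 0.749 from limma). PSMA1 had 48.7, 66.8 and 71.2 TPM at the IP and 81.7, 82.7 and 87.7 TPM at the PP, with no overlap, and its IP replicate 1 lay well under the other IP libraries. PSMA2, with the highest mean of the ring, had 95.8, 111 and 124 TPM at the IP and 127, 126 and 123 TPM at the PP, where only IP replicate 3 reached the PP values. On the other side of 0 was PSMA7, with 123, 143 and 108 TPM at the IP and 87.2, 122 and 95.5 TPM at the PP. There PP replicate 2 lay among the IP libraries (log2 fold change 0.29, and -0.03 with median-ratio scaling). PSMA3 had 83.8 to 109 TPM and a log2 fold change of 0.19 (-0.13 with median-ratio scaling and -0.09 with quantile normalization). PSMA4, the lowest of the ring, had 57.7, 63.6 and 44.0 TPM at the IP and 48.6, 73.8 and 53.7 TPM at the PP, which overlap.

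PSMB8, PSMB9 and PSMB10 encode the catalytic subunits of the immunoproteasome, which interferon gamma induces and immune cells carry at rest. PSMB8 had 4.10, 8.16 and 6.27 TPM at the IP and 7.51, 3.22 and 4.90 TPM at the PP. IP replicate 1 and PP replicate 2 were low and IP replicate 2 and PP replicate 1 high, so the phases overlap over most of their range (log2 fold change 0.23, and -0.06 with median-ratio scaling). PSMB9 had 3.21, 4.19 and 3.71 TPM at the IP and 3.55, 1.85 and 2.14 TPM at the PP, where PP replicate 1 lay among the IP libraries (log2 fold change 0.45, standard error 0.27, adjusted p = 0.798 from limma, and 0.19 with median-ratio scaling). PSMB10 lay the other way, with 3.96, 5.20 and 4.53 TPM at the IP and 5.83, 5.005 and 6.06 TPM at the PP (log2 fold change -0.26). Of 4 gene pairs set for a ratio within libraries, which does not depend on the scaling of the library, 2 could be computed. The ratio of PSMB10 to the constitutive PSMB7 was 0.0650, 0.0684 and 0.0740 in IP libraries, while PP libraries gave 0.0885, 0.0691 and 0.0863. The difference of its log2, IP minus PP, was -0.23 (exact permutation test, two-sided, p = 0.2, adjusted p = 0.4 over the 2 pairs, with 0.1 the smallest p that 3 libraries against 3 allow), and PP replicate 2 lay among the IP libraries.

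PSMB8 and PSMB9 lie beside the peptide transporter genes TAP1 and TAP2 on chromosome 7. PSMB8 runs from 25058456 to 25061666, TAP1 from 25062772 to 25071989 and PSMB9 from 25072133 to 25077508. TAP1 and PSMB9 are on opposite strands, with their annotated starts 144 bases apart. TAP1, which moves peptides into the endoplasmic reticulum for antigen presentation, had 3.42, 4.65 and 2.84 TPM at the IP and 5.11, 2.65 and 3.82 TPM at the PP. It thus had its highest value in PP replicate 1, where PSMB9 did not. Of 7 measured antigen processing partners of these subunits, none passed the adjusted test, and 2 had an unadjusted p under 0.05, both higher at the IP, as were 5.86% of all loci. IRF1, an interferon-induced transcription factor, had 3.43, 6.35 and 3.06 TPM at the IP and 2.12, 2.08 and 1.89 TPM at the PP (adjusted p = 0.668 from limma). NLRC5, an activator of MHC class I genes, had 1.75, 2.48 and 1.02 TPM at the IP and 0.981, 0.574 and 0.786 TPM at the PP (adjusted p = 0.717 from limma). ERAP1, an aminopeptidase that trims peptides for presentation, was also higher in every IP library than in every PP library, and TAP1, TAP2 and TAPBP overlapped. Macrophage markers varied over the same libraries. The 8 markers, none at 0, summed to 32.3, 67.2 and 42.4 TPM at the IP and 65.7, 32.1 and 52.5 TPM at the PP, lowest in IP replicate 1 and PP replicate 2 as PSMB8 was. The sum was carried by C1QA, C1QB and C1QC, while CD163 was highest in PP replicate 2 (6.30 TPM) and CD68 second highest there (1.95 TPM). Of 8 lymphocyte markers only PTPRC and CD3D were measured, with a sum of 1.45 to 3.16 TPM. The part of immune cells in the levels of the inducible subunits was not tested.

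Of the 16 genes of the 19S cap, 9 had a log2 fold change above 0 and 7 below, and 7 of those 9 turned below 0 with median-ratio scaling. None of the 16 passed the adjusted or the unadjusted threshold (limma). The ATPases form the ring that unfolds substrates. PSMC3, the highest of them, had 109, 125 and 99.8 TPM at the IP and 89.5, 111 and 93.9 TPM at the PP, and the lowest, PSMC1, had 50.6, 48.0 and 37.4 TPM at the IP and 35.2, 50.8 and 36.5 TPM at the PP. Both overlap, and in both the libraries with the high median locus were the high ones. PSMC5 had 98.4, 75.8 and 49.2 TPM at the IP and 52.9, 68.3 and 54.7 TPM at the PP, so that IP replicate 3 was the lowest library of all (log2 fold change 0.29, and -0.03 with median-ratio scaling). PSMC6 lay the other way, with 39.7, 56.1 and 50.9 TPM at the IP and 52.8, 70.0 and 54.4 TPM at the PP (log2 fold change -0.27). PSMC2 had 94.7, 90.6 and 91.2 TPM at the IP and 99.7, 116 and 100 TPM at the PP, with no overlap (log2 fold change -0.19, standard error 0.19, adjusted p = 0.807 from limma). PSMC4 varied least of the 40 members, from 46.2 to 53.7 TPM.

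The non-ATPase genes of the cap encode the scaffold PSMD1, the ubiquitin receptor PSMD4, the deubiquitinase PSMD14 and its partner PSMD7, and further subunits of the lid. Several of them varied more between libraries of a phase than between phases. PSMD1 had 26.1, 35.4 and 8.89 TPM at the IP and 11.9, 28.6 and 16.9 TPM at the PP, a 3.98-fold range in which IP replicate 3 was lowest and PP replicate 2 lay with IP replicates 1 and 2. PSMD11, a lid subunit, had 106, 85.7 and 39.3 TPM at the IP and 39.3, 91.2 and 49.6 TPM at the PP, with the same libraries high. PSMD7 had 84.1, 95.2 and 64.0 TPM at the IP and 50.5, 90.8 and 54.1 TPM at the PP (log2 fold change 0.34, standard error 0.29, and 0.021 with median-ratio scaling and 0.61 without PP replicate 2). PSMD6, the lowest of the cap, had 20.6, 19.5 and 12.99 TPM at the IP and 13.3, 26.2 and 15.9 TPM at the PP. By contrast PSMD4 had 59.7 to 78.6 TPM, PSMD8 had 38.4 to 50.5 TPM and PSMD13 had 49.5 to 59.8 TPM. PSMD14 had 27.5, 47.3 and 30.4 TPM at the IP and 33.6, 43.0 and 35.9 TPM at the PP, which overlap, and PSMD3 and PSMD12 had 43.1 to 58.8 and 27.4 to 45.2 TPM.

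Activators and the inhibitor held the member with the widest range. PSME4, a large activator that binds the ends of the core and is known in mice from spermatogenesis, had 66.1, 35.0 and 20.2 TPM at the IP and 24.7, 112 and 43.1 TPM at the PP, a 5.56-fold range with PP replicate 2 far above the rest. The phases overlap, and the log2 fold change of -0.44 (standard error 0.60) became 0.14 without PP replicate 2. Of the 4 muscle ligases listed, TRIM63 and FBXO32 were highest in the same libraries as PSME4, and FBXO30 and FBXO40 in IP replicates 1 and 2. FBXO32 had 363, 97.9 and 43.8 TPM at the IP and 27.9, 331 and 82.3 TPM at the PP, and TRIM63 had 621, 222 and 303 TPM at the IP and 154, 586 and 271 TPM at the PP. For PSME4, FBXO32 and TRIM63, IP replicate 1 and PP replicate 2 were the highest pair of libraries. This pair was not particular to them, as it was also the highest for further members, such as PSMC1 and PSMD11. Among the muscle markers it was the highest pair for CKM and TNNT3, but not for ACTA1, TNNI2 and DES. The share of all loci with this pair is not given, and a link of PSME4 to the ligases was not tested.

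PSME1 and PSME2, which together form the interferon-inducible activator ring, lie tail to tail on chromosome 7, their ends 3959 bases apart. PSME1 had 15.6, 19.3 and 11.9 TPM at the IP and 12.997, 12.8 and 13.1 TPM at the PP, and PSME2 had 13.9, 25.2 and 21.6 TPM at the IP and 19.5, 14.3 and 13.7 TPM at the PP. The ratio of PSME1 to PSME2 was 1.12, 0.766 and 0.551 in IP libraries, while PP libraries gave 0.667, 0.898 and 0.963. The difference of its log2 was -0.10 (exact permutation test, two-sided, p = 0.8, adjusted p = 0.8). It turned above 0 without IP replicate 3 or PP replicate 3. PSME3, the nuclear activator, had 10.6, 11.3 and 4.73 TPM at the IP and 5.96, 10.5 and 6.79 TPM at the PP. Its binding partner PSME3IP1 had 11.07, 11.6 and 14.5 TPM at the IP and 14.9, 13.8 and 13.7 TPM at the PP, so IP replicate 3 and PP replicate 1 were the lowest pair of libraries for PSME3 and the highest pair for PSME3IP1. PSMF1, which inhibits the core in vitro, had 14.7, 13.7 and 6.03 TPM at the IP and 6.94, 15.5 and 8.90 TPM at the PP.

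Assembly chaperones are not part of the finished particle. PSMG3, which helps to build the core, was the highest of them, with 25.5, 33.2 and 24.8 TPM at the IP and 25.9, 26.5 and 24.0 TPM at the PP. The chaperones of the cap were PSMD5, PSMD9 and PSMD10. PSMD10, which binds an ATPase of the cap during assembly, lies on the X chromosome and had 4.31, 8.51 and 4.38 TPM at the IP and 4.16, 3.34 and 4.27 TPM at the PP. The lowest IP library was only just above the highest PP library (log2 fold change 0.40, standard error 0.30, adjusted p = 0.805 from limma), and with median-ratio scaling, with quantile normalization or without MSTRG.716, 0 members were higher at the IP with no overlap. PSMD9 had 11.2 to 13.1 TPM and a log2 fold change of -0.02, and PSMD5 had 6.67 to 11.09 TPM.

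Summed over its 14 genes, the 20S core had 914, 1042 and 942 TPM at the IP and 1006, 1187 and 1056 TPM at the PP. The 19S cap, over 16 genes, had 940, 1022 and 762 TPM at the IP and 777, 1025 and 802 TPM at the PP. Activators had 106, 90.9 and 58.4 TPM at the IP and 63.2, 150.0 and 76.7 TPM at the PP. The sums of the core, the cap and the activators overlap between the phases. Within the core, the 5 constitutive beta genes summed to 388, 437 and 388 TPM at the IP and 455, 518 and 472 TPM at the PP, with every PP library above every IP library. The sum of these beta genes was not among the planned sums. Those of the alpha ring and of the inducible subunits overlap between the phases. No test was made of the sums. The highest library had 1.30 times the lowest for the core, 1.35 times for the cap and 2.57 times for the activators, while the median TPM of all loci had 2.06 times. In the cap and the inhibitor, and in the median of all loci, the highest 3 libraries were IP replicates 1 and 2 and PP replicate 2. In the core they were the PP libraries 2 and 3 and IP replicate 2. The ratio of cap to core was 1.03, 0.981 and 0.809 in IP libraries, while PP libraries gave 0.772, 0.863 and 0.760, which overlap through PP replicate 2. For the ATPases alone, the ratio to the core was 0.480, 0.431 and 0.404 in IP libraries, while PP libraries gave 0.379, 0.393 and 0.369, with every IP library above every PP library. This last ratio was singled out after its values were seen.

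**Figure D3:**
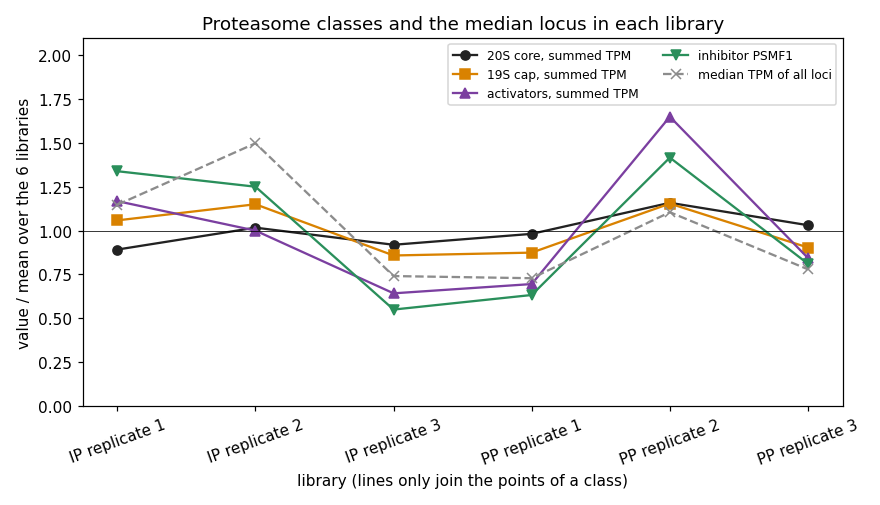
Summed TPM of the 20S core, the 19S cap and the activators, TPM of the inhibitor PSMF1 and the median TPM of all loci in each library, each divided by its own mean over the 6 libraries. The core stays close to 1 in all libraries (highest to lowest 1.30). The sum of the activators (2.57) and PSMF1 (2.58) had the same 3 highest libraries as the median locus (2.06). Of the 4 activators only 1, PSME3, had them, against 54.6% of all loci, and PSME4 gave 112 of the 150 TPM of the sum in PP replicate 2.

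The members thus differed in how far they varied between libraries. The ratio of the highest to the lowest library had a median of 1.63 over the 40 members, and 9 of them (22.5%) exceeded 2, where the median over all tested loci was 2.41 and 67.6% exceeded 2. Among the 5178 tested loci with a RefSeq length and a mean TPM within the range of the members, the median was 2.20 and 60.4% exceeded 2. None of the 11 alpha and constitutive beta genes exceeded 2, with a highest value of 1.80 (PSMA1), nor did any of the 6 ATPases. The 9 were PSMB8, PSMB9, PSMD1, PSMD6, PSMD11, PSMD10, PSME3, PSME4 and PSMF1. The 3 libraries with the high median locus were also the highest 3 for 9 of the 16 cap genes (56.3%), for 2 of the 14 core genes (14.3%) and for 54.6% of all tested loci. Transcript length was set beside this range, as the deposited TPM are corrected for length. Over all 7993 tested loci with a RefSeq length and a value above 0 in every library, Spearman's rho of mRNA length with the range was 0.298, and over the 39 members it was 0.236. Pearson's r of the log2 values was 0.233 and 0.466, so which set had the closer relation depended on the measure. These are correlations across genes measured in the same 6 libraries. Of the members, 28 have mRNAs among the shortest 1999 of these loci (up to 1875 nt), where their median range was 1.62 and that of all loci 1.96. The longest, PSME4 with 7353 nt, had the widest range. The part of transcript length in these differences was not tested.

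**Figure D4:**
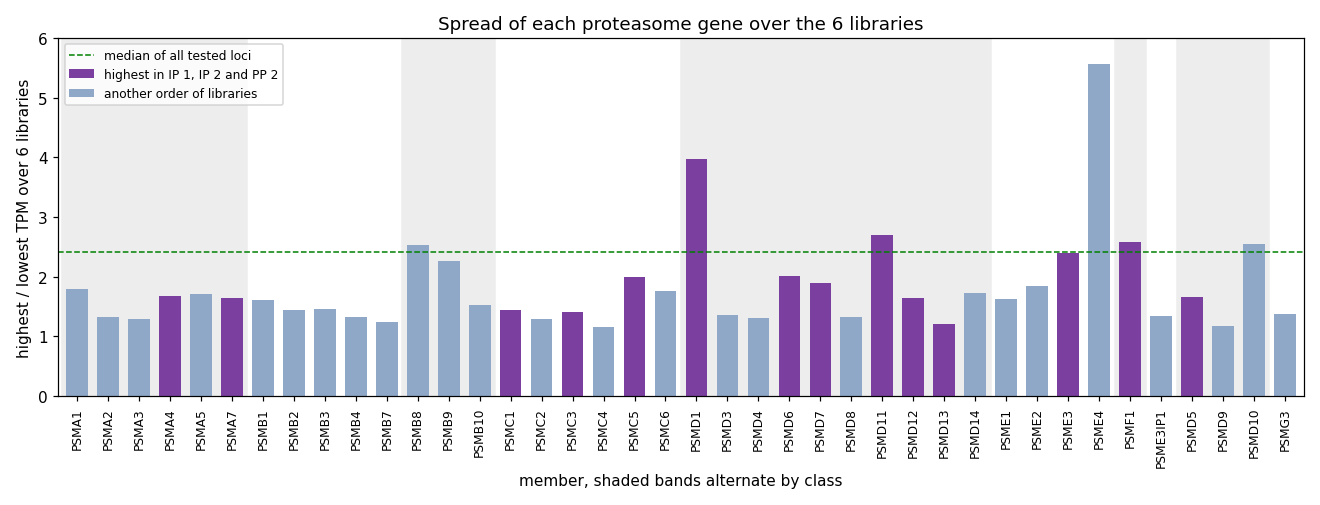
Ratio of the highest to the lowest of the 6 libraries for each member, with purple bars for genes whose highest 3 libraries were IP replicates 1 and 2 and PP replicate 2, and a dashed line at the median of all tested loci (2.41). Genes of the alpha and constitutive beta rings stay under 2, and PSME4 (5.56) and PSMD1 (3.98) stand highest.

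Of 43 other genes of the pathway set in lists, 39 were measured and tested. None passed the adjusted test. At an unadjusted p under 0.05, 3 had the higher mean at the IP and 0 had it at the PP, against 5.86% and 1.06% of all loci. By sign of the log2 fold change, 29 lay above 0 and 10 below (median log2 fold change 0.30), where 82.6% of all loci lay above 0. The third with such a p, beside IRF1 and NLRC5, was FBXO40, a muscle F-box ligase of insulin receptor signalling (142, 116 and 78.2 TPM at the IP and 40.1, 81.3 and 47.5 TPM at the PP, where PP replicate 2 lay above IP replicate 3, log2 fold change 1.003, adjusted p = 0.572 from limma). POMP, the maturation factor of the core, had 226, 259 and 290 TPM at the IP and 266, 270 and 257 TPM at the PP, above every subunit in every library. ADRM1, a ubiquitin receptor of the cap, had 23.6, 17.8 and 14.2 TPM at the IP and 19.5, 31.7 and 22.8 TPM at the PP. SEM1 was not analysed here. NFE2L1, a transcription factor known to raise proteasome genes when the proteasome is inhibited, had 72.5, 100 and 44.8 TPM at the IP and 66.6, 75.7 and 55.6 TPM at the PP, and NFE2L2 had 10.6 to 21.9 TPM. Both overlap between the phases. Among ubiquitin genes, UBB had 989, 1183 and 1067 TPM at the IP and 1287, 1231 and 1292 TPM at the PP, with every PP library above every IP library (log2 fold change -0.24, adjusted p = 0.805 from limma). UBA1, the main ubiquitin-activating enzyme, had 28.7, 28.5 and 13.5 TPM at the IP and 14.6, 17.0 and 13.4 TPM at the PP. RPS27A, a fusion of ubiquitin with a ribosomal protein, had 931 to 1191 TPM and a range of 1.28. For VCP, the highest libraries were those with the high median locus. This segregase, which extracts ubiquitinated proteins, had 114, 106 and 45.8 TPM at the IP and 44.2, 121 and 63.6 TPM at the PP. The cap-bound deubiquitinase USP14 had 13.2, 14.8 and 3.57 TPM at the IP and 4.22, 12.6 and 7.10 TPM at the PP, a wider range (4.15) than all members but PSME4.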

How the data were processed

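Poly(A) RNA of 6 libraries was sequenced by the authors. Reads with adapter or poor base calls were dropped, TopHat was used for alignment and Cufflinks for assembly, and the authors deposited TPM per locus, with a column for each library. An earlier pig build is named in the methods, but Sscrofa11.1 in the processing notes of the submitters. How reads shared with pseudogenes were assigned is not given in the sources used here, so values of members with near-identical copies are uncertain. Symbols came from the Ensembl pig table, positions and promoters from RefSeq on Sscrofa11.1.

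From the deposited TPM, log2(TPM + 1) was computed, and limma 3.58.1 (R 4.3.3) was applied to the 10896 loci with at least 1 TPM in at least 3 libraries (eBayes with trend, two-sided, threshold 0.05 after Benjamini-Hochberg adjustment). TPM are no counts, so no count model was used. Ratios of gene pairs were compared with exact permutation tests (scipy 1.17.1 in Python 3.11.15). On simulated libraries of 10896 genes for IP against PP, 0% of 200 genes changed 2-fold and 87.0% of 200 changed 8-fold were recovered. Precision rests on the spread of 3 libraries a phase.

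The rule for named genes allows every member, with values by library for catalytic subunits, activators and the inhibitor, and for the genes with the extreme mean or fold change in each class. It adds members with an unadjusted p under 0.05, the 2 genes of smallest p of each other list, and POMP, ADRM1, SEM1 and NFE2L1. Members and lists were chosen with earlier results of these data known. The alternatives were other pseudocounts, filters, scalings and variance models, a block for the replicate number, and the omission of each library.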

Additional observations from a re-analysis of the deposited data

How the results depend on the processing

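No member was called in the 17 alternatives, with 0 members past the study's thresholds in each. The replicate block gave 0 called members (3 loci in all), and the deviations of same-numbered libraries from their phase means correlated with r of -0.53, 0.20 and 0.22, so the numbers are not taken to pair the libraries. Of the 40 members, 18 kept the direction of their log2 fold change in all alternatives and 22 turned in at least 1. Alternatives that changed only the filter, the variance model or the block could not turn a direction, as they leave the fold change as it is. The median of the members was -0.32 with median-ratio scaling and -0.29 with quantile normalization, as both scalings centre all loci near 0. Without MSTRG.716 it was -0.14, and that of all loci was 0.15. At an unadjusted p under 0.05 (limma), members higher at the PP numbered 3 with median-ratio scaling, 6 with quantile normalization and 4 without MSTRG.716, against 1 in the main fit. Those settings moved the median of all loci toward the PP as well. The shares of all loci at this p in those settings are not given, so the counts are not read as a result about the members. Members higher at the PP with no overlap numbered 7 with median-ratio scaling (7.32% of all loci) and 12 with quantile normalization (7.53%). They numbered 14 without MSTRG.716 (4.01%) and 5 to 13 with a library left out (2.45% to 6.34%). Members higher at the IP with no overlap numbered 0 with a mean of at least 5 TPM (12.9% of all loci), median-ratio scaling (6.64%), quantile normalization (6.57%) or without MSTRG.716 (8.45%), and 1 to 8 with a library left out (11.3% to 41.0%). The log2 ratio of summed TPM, IP to PP, was -0.46 (median-ratio scaling) and -0.30 (without MSTRG.716) for the core, against -0.17, and -0.25 (median-ratio scaling) for the cap, against 0.06. For the activators it was -0.18 and became 0.28 without PP replicate 2. Log2 fold changes turned below 0 with median-ratio scaling for PSMA3 (-0.13), PSMA7 (-0.031), PSMB8 (-0.058), PSMC1 (-0.16), PSMC3 (-0.15), PSMC4 (-0.32), PSMC5 (-0.029), PSMD1 (-0.15), PSMD12 (-0.22), PSMD13 (-0.28), PSMD5 (-0.0057), PSME1 (-0.089), PSME3 (-0.16), PSMF1 (-0.19) and PSMG3 (-0.20). With quantile normalization they did so for PSMA3 (-0.089), PSMB8 (-0.058), PSMC1 (-0.14), PSMC3 (-0.095), PSMC4 (-0.28), PSMD1 (-0.13), PSMD12 (-0.21), PSMD13 (-0.23), PSMD5 (-0.011), PSME1 (-0.10), PSME2 (-0.011), PSME3 (-0.16), PSMF1 (-0.20) and PSMG3 (-0.19). Without MSTRG.716 they did so for PSMC4 (-0.14), PSMD12 (-0.041), PSMD13 (-0.098), PSMF1 (-0.025) and PSMG3 (-0.025). With a library left out, the log2 fold change crossed 0 for PSMA4 (-0.21 to 0.092), PSMB8 (-0.021 to 0.48), PSMC4 (-0.039 to 0.067), PSMD1 (-0.22 to 0.72), PSMD12 (-0.083 to 0.28), PSMD13 (-0.030 to 0.098), PSMD14 (-0.36 to 0.025), PSMD4 (-0.12 to 0.071), PSMD6 (-0.22 to 0.24), PSMD9 (-0.060 to 0.047), PSME3 (-0.066 to 0.49), PSME4 (-0.93 to 0.14), PSMF1 (-0.12 to 0.48) and PSMG3 (-0.016 to 0.19), and the log2 ratio of PSME1 to PSME2 ran from -0.36 to 0.15. The cause of the turns was not tested. Depth per locus is unknown, so counting error was not separated from the spread between libraries.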
